A study of Mus musculus with 9 samples.

Results

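Amino acid transporter transcripts were followed in spermatogonia preparations from testes of adult Balb/C mice fed either a vitamin A-deficient (VAD) or a normal diet. The 9 genes were the exchanger Slc1a5, its relatives Slc1a4 and Slc1a3, the sodium-coupled carriers Slc38a1 and Slc38a2, the heavy chain Slc3a2, and the light chains Slc7a5, Slc7a6 and Slc7a11. Probe sets whose platform annotation gave 1 of these symbols alone were taken, 22 of the 45101 on the array. Of the 22, 12 passed a filter on low signals, with at least 1 for each of the 9 genes. The set was chosen by the measured 18-week decrease of Slc1a5, which had already been seen in these data, and the other 8 genes are its relatives or carriers of overlapping substrates. For these 9 genes the 18-week changes and the 25-week against 18-week changes are therefore given as descriptions without a test.

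The 9 arrays comprised 3 from mice after 25 weeks on the VAD diet, 3 after 18 weeks and 3 from mice on the normal diet. The labels name no mutation or transgene and give no time on the diet for the control mice, and all mice are described only as adult. Testes of 2 mice were pooled for a preparation, the supernatant with interstitial cells was removed after collagenase, and germ cells left in suspension after a night in culture were separated by sedimentation. Nothing in the labels says that each array held a separate preparation, so p-values measure only the spread between these arrays, and 3 arrays per group limit the precision of every value.

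Cells take up amino acids through carriers of several gene families. SLC1A5 (ASCT2) exchanges neutral amino acids such as glutamine, SLC38 carriers import glutamine and alanine together with sodium, and SLC7 light chains pair with the heavy chain SLC3A2 (4F2hc, CD98) to reach the cell membrane. When amino acids run short, the transcription factor ATF4 induces several of these genes through a composite C/EBP-ATF element, and amino acids inside the cell activate the growth kinase complex mTORC1.

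The RefSeq promoter windows that held such an element are shown because they belong to Slc1a4, the single transporter of the 9 called at 25 weeks, and to Slc7a11, a known ATF4 target. Windows run from 250 bases before to 50 bases after the annotated start site, on GRCm38.p6, and are printed 5′ to 3′ along the strand of the gene with each match to TGATGNAA, on either strand, in capitals.
Slc1a4 (chr11:20332664-20332963, minus strand): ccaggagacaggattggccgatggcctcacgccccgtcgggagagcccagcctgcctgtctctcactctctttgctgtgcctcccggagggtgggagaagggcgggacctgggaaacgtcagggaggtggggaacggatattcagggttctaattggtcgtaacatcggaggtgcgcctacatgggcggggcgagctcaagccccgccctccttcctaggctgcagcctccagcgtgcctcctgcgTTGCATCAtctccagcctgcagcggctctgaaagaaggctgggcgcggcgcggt
Slc7a11 (chr3:50443564-50443863, minus strand): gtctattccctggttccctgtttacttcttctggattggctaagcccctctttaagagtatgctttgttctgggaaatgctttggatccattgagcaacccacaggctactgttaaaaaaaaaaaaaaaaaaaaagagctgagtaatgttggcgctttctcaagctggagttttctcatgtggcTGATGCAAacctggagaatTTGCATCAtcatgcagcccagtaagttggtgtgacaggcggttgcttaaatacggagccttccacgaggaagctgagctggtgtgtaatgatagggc
The Slc1a4 window held 1 match, on the opposite strand from base -4 to base 4 around the start site. In the Slc7a11 window there were 2 matches, TGATGCAA from base -66 to -59 and its reverse complement TTGCATCA from base -47 to -40. Of the 9 genes, 6 had a window in the table, and those 2 held the motif, while 3.97% of all 32851 windows did. A further 2 motifs were searched on both strands in the same windows, and in the windows of the 6 genes no match of one motif overlapped a match of another. TGACNNNGC, the core of the antioxidant response element, was found in Slc7a6 and Slc38a2 and in 12.4% of all windows, and the E-box CACGTG in 0 of the 6 genes and 7.15% of all windows. Counts of genes and shares of windows are unlike units, so no enrichment can be read from them. A match describes letters and shows no binding.

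The arrays differed in brightness. VAD 25-week replicate 3 and control replicate 3, referred to as the dim pair, had trimmed means of 23.3 and 23.0 in deposited signal, against 55.6 to 186 on the other 7 arrays. VAD 25-week replicates 1 and 2 were the brightest. Values below are log2(signal + 3.259) after quantile normalization, so every change is relative to a common distribution, and changes were fitted with limma over all 9 arrays with the dim pair as a block. That block leaves the 25-week change equal to the difference of the group means, but it alters the 18-week change. On the deposited scale the median change of all kept probe sets was 0.93 at 25 weeks and 0.12 at 18 weeks, against -0.01 and -0.01 after normalization.

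The labelled cell type was checked against marker genes. All 4 general germ cell markers and 8 of 8 markers of differentiating spermatogonia on the array passed the signal filter, but among 10 markers of undifferentiated spermatogonia Ret, Lhx1, Eomes, Sall4 and Lin28a did not. Over all 10, summed normalized signals were 663 to 775 on VAD 25-week arrays, 560 to 692 on VAD 18-week arrays and 354 to 418 on control arrays. These sums, in which the brightest markers weigh most, did not overlap between either VAD group and control. The 5 markers that passed had a median fitted change of 0.45 at 25 weeks and -0.01 at 18 weeks. In limma 1 of the 5 rose and 0 fell in each comparison with control. The 11 spermatocyte and 11 spermatid markers all passed the filter. Spermatocyte sums were 17627 to 23795 at 25 weeks, 25014 to 25202 at 18 weeks and 17396 to 24498 in control. For spermatid markers the sums were 4703 to 16646 at 25 weeks, 7919 to 13320 at 18 weeks and 7207 to 17131 in control. At 25 weeks 4 spermatocyte markers rose and 1 fell, while 0 spermatid markers rose and 2 fell (limma, dim pair as a block). At 18 weeks 3 spermatocyte markers rose and 0 fell, while 0 spermatid markers passed. Sertoli cell markers numbered 22 on the array, with 18 above the filter (Sox9, Sox8, Amh and Gdnf below). Over all 22, summed normalized signals were 1492 to 2321 on VAD 25-week arrays, 1148 to 3124 on VAD 18-week arrays and 502 to 651 on control arrays. Of those 18, 12 rose at 25 weeks and 0 fell, with a median change of 1.51 (limma, dim pair as a block). At 18 weeks 8 of them rose and 0 fell, with a median change of 1.70, in a comparison where 1.51% of named genes passed. Of 6 Leydig cell markers above the filter (8 on the array), 1 rose at 25 weeks and 0 at 18 weeks. Sums over all 8 were 1017 to 1663 at 25 weeks, 1682 to 2392 at 18 weeks and 548 to 1833 in control. Of 9 leukocyte markers above the filter (14 on the array), 5 rose at 25 weeks and 0 at 18 weeks. Sums over all 14 were 259 to 378 at 25 weeks, 163 to 247 at 18 weeks and 162 to 350 in control. In these mixed RNA samples, fewer cells of a type and less RNA per cell cannot be told apart, and the part of these markers in the transporter values was not tested.

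Of the 9 transporters, each read by its brightest probe set above the filter, 1 passed the test at 25 weeks, Slc1a4, which was lower, while 14.8% of all 27022 kept probe sets passed, 8.51% as higher and 6.29% as lower. That share of the transporters is near the background. The median change of the 9 genes was -0.25, against -0.03 over all 13616 named genes. Those below control were Slc1a5, Slc1a4, Slc38a1, Slc38a2, Slc3a2 and Slc1a3, and those above were Slc7a5, Slc7a6 and Slc7a11, although on the deposited scale Slc1a4 alone stayed below. With group as the sole term in the model, limma called 0 of the 27022 probe sets at 25 weeks (3211 had an unadjusted p under 0.05, and the lowest adjusted p was 0.0854), so the call below rests on the block.

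**Figure D1:**
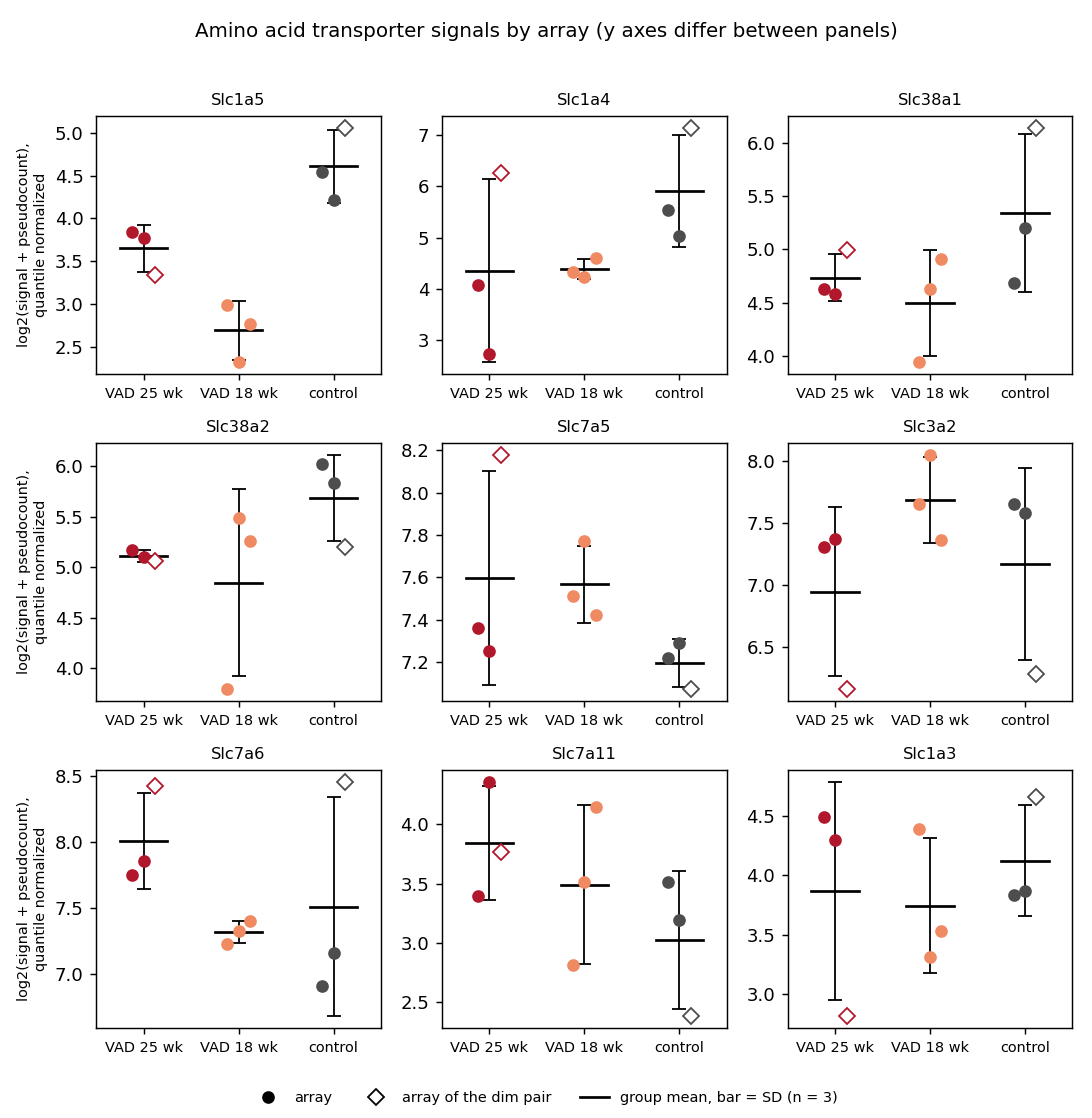
Normalized log2 signal of the brightest probe set of each transporter on every array, for VAD 25 weeks, VAD 18 weeks and control, with group means and SD (n = 3). Open diamonds are the dim pair. The VAD 18-week points of Slc1a5 (2.32 to 2.99) and Slc1a4 (4.23 to 4.61) all sit below the control points, and those of Slc7a5 (7.42 to 7.77) all sit above.

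Slc1a5, the glutamine exchanger, was read by 2 probe sets that did not show the same thing. The platform annotation assigns both to Slc1a5, but whether the probes of the first, 1440379_at, lie in the Slc1a5 transcript was not checked here, and every value of it carries that limit. The probe set above the filter, 1440379_at, had normalized log2 signals of 3.84, 3.77 and 3.34 on VAD 25-week arrays. It had 2.99, 2.32 and 2.77 on VAD 18-week arrays and 4.54, 4.22 and 5.06 on control arrays. The 3 groups did not overlap, with control highest and VAD 18 weeks lowest. Groups separate from control were found in 16.2% of kept probe sets at 25 weeks (9.13% higher, 7.12% lower) and in 19.3% at 18 weeks (11.8% higher, 7.57% lower). VAD 25-week and VAD 18-week arrays were separate in 17.1% (7.33% higher, 9.79% lower at 25 weeks). At 18 weeks the fitted log2 change was -1.88 ± 0.39 (SE, 3 arrays in each group), which is the value behind the choice of genes, in a comparison where 1.46% of kept probe sets passed, 1.32% as higher and 0.133% as lower. At 25 weeks it was -0.96 ± 0.37, which did not pass (limma adjusted p = 0.104, 95% interval -1.77 to -0.15). That 25-week comparison uses the control arrays that entered the choice of Slc1a5, which favours a decrease. The mean signal of 1440379_at, at the 46.7th percentile, was not far above the filter, and the control arrays, where it was highest, raised it past that filter. The p and interval at 25 weeks are therefore free neither of the choice nor of the filter. The change was -1.72 within the dim pair and -0.58 outside it. Between the diet times, VAD 25 weeks lay above VAD 18 weeks by 0.92 ± 0.39.

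The first Slc1a5 probe set was also set against the median of each array. In deposited units its signal was 26.2, 18.2 and 4.47 on VAD 25-week arrays, where the array medians over all probe sets were 28.0, 21.1 and 7.67. On VAD 18-week arrays it was 5.11, 1.20 and 3.63, with array medians of 13.3, 9.74 and 12.6, and on control arrays 14.1, 11.2 and 15.1, with array medians of 8.10, 8.62 and 7.34. That probe set lay below the median of its array on all 6 VAD arrays and above it on all 3 control arrays, which restates the decrease by which the genes were chosen. With pseudocounts of 16 and 1 the 18-week change was -0.93 and -2.40, so its size depends on how low signals are treated. On the deposited scale the 25-week change was 0.03, or -0.90 relative to the median of all kept probe sets.

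The other Slc1a5 probe set, 1416629_at, whose platform entry cites a RefSeq transcript, fell below the signal filter with a mean signal at the 16.6th percentile of all probe sets. Its normalized values were 2.52, 3.78 and 2.52 on VAD 25-week arrays, 2.15, 2.12 and 3.36 on VAD 18-week arrays and 2.34, 2.64 and 2.27 on control arrays. These groups overlapped, with means of 2.94 ± 0.73 at 25 weeks, 2.54 ± 0.70 at 18 weeks and 2.42 ± 0.20 in control (SD, n = 3). Its deposited signals of 1.05, 2.06 and 1.11 on control arrays were below the array medians. The separation of the first probe set was thus not seen by the probe set tied to that transcript.

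**Figure D2:**
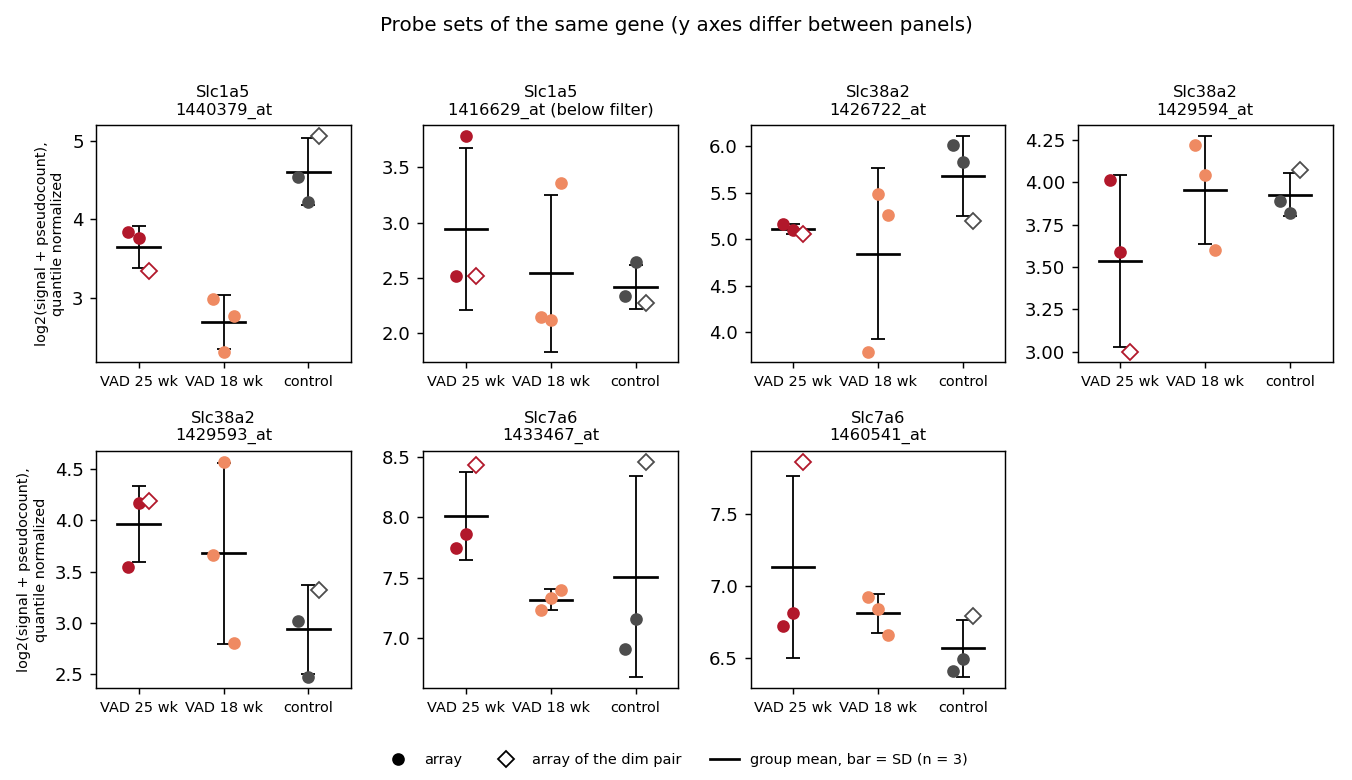
Normalized log2 signal of every probe set of Slc1a5, Slc38a2 and Slc7a6 by array, for VAD 25 weeks, VAD 18 weeks and control, with group means and SD (n = 3). The 2 Slc1a5 probe sets differ in pattern, and Slc38a2 changes of -0.57 and 1.03 at 25 weeks come from different probe sets of that gene.

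Slc1a4 encodes ASCT1, an exchanger of alanine, serine and cysteine. The probe set above the filter had normalized log2 signals of 4.08, 2.73 and 6.26 on VAD 25-week arrays, 4.33, 4.23 and 4.61 on VAD 18-week arrays and 5.54, 5.04 and 7.14 on control arrays. The arrays of the dim pair were highest in their groups, and VAD 25-week values were below control values both within that pair and among the other arrays. The 25-week change was -1.55 ± 0.36 (SE, n = 3 per group) and passed the test (limma adjusted p = 0.0165), with -0.87 within the dim pair and -1.88 outside it. Without the dim pair limma gave an adjusted p = 0.0128, and adding the replicate numbers to the block gave 0.0290, but the replicate numbers alone as a block gave 0.233. The call was lost without VAD 25-week replicate 2 (-1.07, limma adjusted p = 0.0571), without control replicate 1 (-1.31, 0.0747), in the model without a block (0.519), with a block of 3 array sets (-0.87, 0.310) and on the deposited scale (-0.69, 0.202). At 18 weeks the change was -0.73 ± 0.39 (-0.43 without control replicate 1), and all 3 VAD 18-week arrays lay below all 3 control arrays. The remaining probe sets, 1423549_at and 1423550_at, were below the filter, with 25-week means of 2.37 and 2.06, 18-week means of 2.84 and 2.53 and control means of 3.33 and 3.31. Both were lowest at 25 weeks, and only 1423550_at at 25 weeks was separate from control. Within the dim pair, however, the 25-week change of 1423549_at was 0.83, against -1.86 outside it. For 1423550_at the change was -2.21 within the pair and -0.78 outside it.

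Slc38a1 (SNAT1), a sodium-coupled importer of glutamine, had 4.63, 4.58 and 4.99 on VAD 25-week arrays, 3.94, 4.63 and 4.91 on VAD 18-week arrays and 4.68, 5.20 and 6.14 on control arrays. The groups overlapped. Its change was -0.60 ± 0.31 at 25 weeks (limma adjusted p = 0.221, 95% interval -1.29 to 0.08) and -0.58 ± 0.33 at 18 weeks. Leaving out control replicate 3 gave -0.33 at 25 weeks, and leaving out VAD 18-week replicate 1 gave -0.30 at 18 weeks. A second probe set, 1454764_s_at, lay at the 11th percentile of mean signal and was not tested.

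Slc38a2 (SNAT2), whose transcript is known to rise when cells lack amino acids, had 3 probe sets above the filter, and they disagreed. The brightest, 1426722_at, read 5.17, 5.10 and 5.06 on VAD 25-week arrays, 3.79, 5.49 and 5.26 on VAD 18-week arrays and 6.02, 5.83 and 5.20 on control arrays. The VAD 25-week arrays all lay below the control arrays, with VAD 18-week replicate 1 the lowest of all. Its changes were -0.57 ± 0.39 at 25 weeks (limma adjusted p = 0.347) and -0.97 ± 0.41 at 18 weeks, and the 18-week change was -0.44 without VAD 18-week replicate 1. For 1429593_at, the values were 3.54, 4.17 and 4.19 at 25 weeks, 3.66, 4.57 and 2.80 at 18 weeks and 3.02, 2.47 and 3.32 in control. There all VAD 25-week arrays lay above control, by 1.03 ± 0.46 (limma adjusted p = 0.157). The mean signal of 1429593_at, at the 43.5th percentile, was just above the filter, against the 71.7th for 1426722_at. Its deposited signals of 3.13, 1.54 and 4.2 on control arrays were below the array medians. With 1429594_at the 25-week change was -0.40 ± 0.35 (limma adjusted p = 0.480). No direction for Slc38a2 can be given from these probe sets.

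Slc3a2, the heavy chain that the SLC7 light chains need, had 7.31, 7.37 and 6.16 on VAD 25-week arrays, 7.65, 8.05 and 7.36 on VAD 18-week arrays and 7.65, 7.58 and 6.28 on control arrays. Replicate 3 of the VAD 25-week and control groups, the dim pair, was lowest in each. The change was -0.22 ± 0.18 at 25 weeks (limma adjusted p = 0.459, 95% interval -0.62 to 0.19) and 0.10 ± 0.20 at 18 weeks. Its mean signal stood at the 87.7th percentile of all probe sets.

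Slc7a5 (LAT1), which exchanges large neutral amino acids such as leucine, had 7.36, 7.25 and 8.18 on VAD 25-week arrays, 7.51, 7.77 and 7.42 on VAD 18-week arrays and 7.22, 7.29 and 7.07 on control arrays. All VAD 18-week arrays lay above control, by 0.49 ± 0.22 in the fit and 0.31 without the dim pair. At 25 weeks the change was 0.40 ± 0.21 (limma adjusted p = 0.222, 95% interval -0.06 to 0.86), with 1.11 within the dim pair and 0.05 outside it. With a block of 3 array sets, which rests on the dim pair, the 25-week change was 1.11 (limma adjusted p = 0.00965).

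Slc7a6 (y+LAT2), which exchanges cationic for neutral amino acids, was read by 2 bright probe sets. The brighter, 1433467_at, had 7.75, 7.86 and 8.43 on VAD 25-week arrays, 7.23, 7.33 and 7.40 on VAD 18-week arrays and 6.91, 7.16 and 8.46 on control arrays. VAD 25-week arrays lay above all VAD 18-week arrays, whereas the dim control array was the highest of the 9. The 25-week change was 0.50 ± 0.18 and did not pass (limma adjusted p = 0.0843, 95% interval 0.11 to 0.90). Outside the dim pair it was 0.77 and passed (limma adjusted p = 0.0105, in a fit where 15.7% of probe sets passed), and within that pair it was -0.03. The other probe set, 1460541_at, gave 0.57 ± 0.19 at 25 weeks (limma adjusted p = 0.0640), with 0.32 outside the dim pair and 1.07 within it. The first probe set was thus above control only outside the pair, and the second both within and outside it. At 18 weeks the changes were 0.15 ± 0.19 and 0.48 ± 0.20.

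Slc7a11 (xCT) imports cystine in exchange for glutamate and feeds glutathione synthesis. It had 3.40, 4.36 and 3.77 on VAD 25-week arrays, 2.81, 3.51 and 4.15 on VAD 18-week arrays and 3.51, 3.19 and 2.38 on control arrays. The groups overlapped, and the mean signal, at the 41.6th percentile, was just above the filter. Its change was 0.82 ± 0.45 at 25 weeks (limma adjusted p = 0.245, 95% interval -0.16 to 1.80) and 0.28 ± 0.48 at 18 weeks. The second probe set, 1443536_at, was below the filter, with means of 2.14 at 25 weeks, 2.47 at 18 weeks and 2.83 in control.

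Slc1a3 (GLAST, EAAT1), a glutamate carrier known from astrocytes, had 1 of its 6 probe sets above the filter. That probe set had 4.49, 4.30 and 2.81 on VAD 25-week arrays, 4.39, 3.31 and 3.53 on VAD 18-week arrays and 3.83, 3.87 and 4.66 on control arrays. The groups overlapped, and the 25-week change of -0.25 ± 0.48 (limma adjusted p = 0.758) was -1.85 within the dim pair and 0.54 outside it. At 18 weeks it was -0.50 ± 0.51. The other 5 probe sets lay between the 2.90th and 26.8th percentiles of mean signal.

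**Figure D3:**
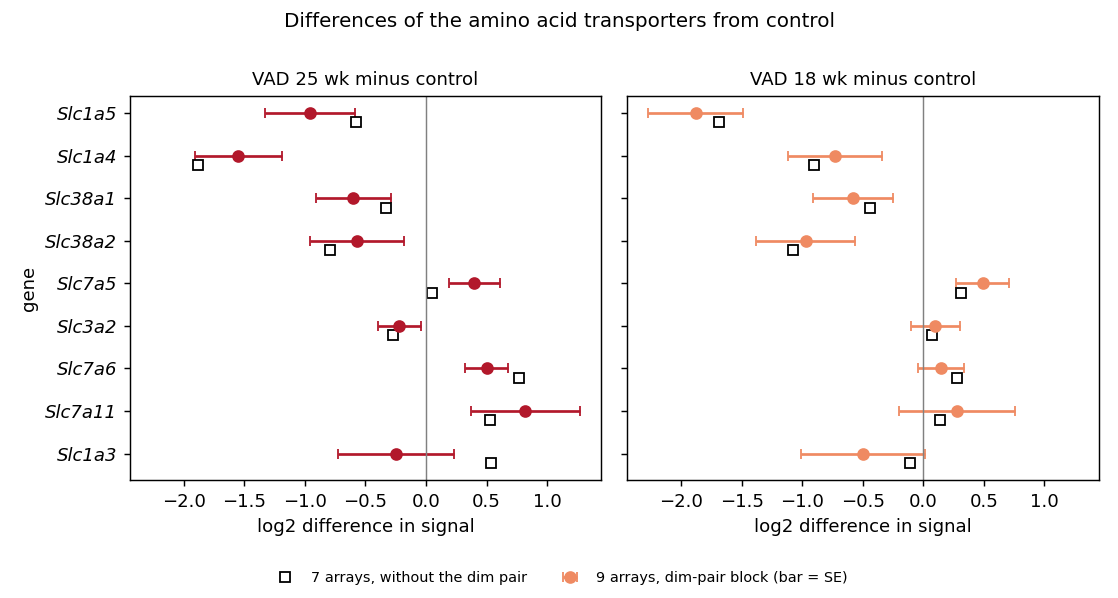
Fitted log2 differences of the 9 transporters from control at 25 weeks (left) and 18 weeks (right), with SE from all 9 arrays, and the differences on the 7 arrays outside the dim pair as squares. Slc1a4 at 25 weeks (-1.55) is the single tested change with an adjusted p under 0.05, and without the pair the 25-week differences of Slc1a3 and Slc7a5 are 0.54 and 0.05.

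In the direct comparison of VAD 25 weeks with VAD 18 weeks, limma called 0 of 27022 probe sets (3124 had an unadjusted p under 0.05, and the lowest adjusted p was 0.133), and 451 without the dim pair, which is 1.67%. The transporter changes ran from -0.82 ± 0.39 for Slc1a4 to 0.92 ± 0.39 for Slc1a5. For Slc1a4 the change was -0.21 without VAD 25-week replicate 2, -1.18 without VAD 25-week replicate 1 and -0.03 without the block. For Slc7a11 the change was 0.54 ± 0.48, and for Slc38a1 it was -0.03 ± 0.33. The 2 comparisons with control share the control arrays, so their values for the same gene are not independent.

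Among 13615 other named genes, the 5 whose values followed Slc1a5 (1440379_at) most closely over the 9 arrays, after removal of the fitted dim-pair offset, were Mep1a, Rapgef2, Nup160, Cdca4 and Adam33. Their Pearson correlations were 0.989, 0.980, 0.965, 0.961 and 0.960, given as a description of arrays that share groups and normalization. Mep1a, which encodes a subunit of the protease meprin, had 4.07, 3.98 and 4.20 on VAD 25-week arrays, 3.42, 3.23 and 3.47 on VAD 18-week arrays and 4.42, 4.14 and 5.0 on control arrays. Each of the 5 was lowest on average at 18 weeks, with fitted changes of -1.0, -0.50, -0.36, -0.49 and -1.44. This follows from their choice by likeness to Slc1a5, which was itself lowest at 18 weeks. Within the transporters, Slc1a3 had the correlation nearest to 1 (0.634) and Slc7a5 the lowest (-0.837). On the 7 arrays outside the dim pair Slc38a2 was nearest to 1 (0.453, with Slc1a3 at 0.426) and Slc7a5 was again lowest (-0.891).

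Other genes of amino acid transport, metabolism and sensing were taken as 6 lists. At 25 weeks 17% of the 13616 named genes passed, 9.05% higher and 7.95% lower, and the lists are described beside those shares. Of 26 other amino acid transporters above the filter (40 on the array), 3 rose, 2 fell and 21 did not pass, with a median of -0.18. Slc38a5 (SNAT5), a carrier of glutamine and related amino acids, rose by 2.32 ± 0.46 (limma adjusted p = 0.00823, and 0.120 without the block). It had 4.43, 4.86 and 4.68 on VAD 25-week arrays, 2.38, 4.21 and 3.14 on VAD 18-week arrays and 2.56, 2.28 and 2.18 on control arrays. The VAD 25-week arrays of Slc38a5 lay above all others, and VAD 18-week replicate 1 lay within the control range. Its control values were low, and it passed the signal filter through its VAD 25-week arrays, where it was high. The p and the size of this rise are therefore not free of the filter. Slc38a9, a lysosomal arginine sensor, rose by 0.90 ± 0.16, with 8.0, 8.08 and 8.09 on VAD 25-week arrays, 7.43, 7.35 and 7.70 on VAD 18-week arrays and 6.89, 7.06 and 7.50 on control arrays. Slc43a2 (LAT4), a carrier of branched-chain amino acids, fell by 1.09 ± 0.20, with 5.68, 5.12 and 5.58 at 25 weeks, 6.11, 5.99 and 6.03 at 18 weeks and 6.53, 6.43 and 6.69 in control. For both genes the 25-week arrays lay wholly outside the control range. Slc38a6 rose by 0.79 ± 0.22, but its limma adjusted p was 0.0839 without the dim pair and 0.0844 with the replicate block. Slc1a2 (GLT-1), a glutamate carrier named after its value was seen, fell by 0.77 ± 0.22, with limma adjusted p = 0.0596 without the dim pair and 0.0876 with the replicate block. Sertoli cell markers had a median change of 1.51 in the same comparison, and their part in these values was not tested.

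Of 21 genes of the ATF4 amino acid response above the filter, 2 fell, 0 rose and 19 did not pass at 25 weeks, with a median of -0.28. Ddit3, which encodes the stress factor CHOP, fell by 0.98 ± 0.20 (limma adjusted p = 0.00823). Its values were 7.28, 7.45 and 6.32 on VAD 25-week arrays, 8.20, 7.88 and 7.50 on VAD 18-week arrays and 8.31, 8.06 and 7.61 on control arrays. Eif4ebp1, a repressor of translation initiation that mTORC1 inactivates, fell by 0.88 ± 0.25 (limma adjusted p = 0.0379, and 0.0962 with the replicate block). Of 19 cytosolic aminoacyl-tRNA synthetases, which load tRNAs, Hars (histidine) rose by 0.83 ± 0.18, while Aars (alanine) fell by 0.66 ± 0.13 and Farsa (phenylalanine) by 0.60 ± 0.17. Farsa had a limma adjusted p = 0.0576 with the replicate block.

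Among 32 genes of amino acid sensing by mTORC1, 4 rose and 2 fell at 25 weeks, with a median of 0.08. Bmt2 (SAMTOR), a sensor of S-adenosylmethionine, rose by 2.26 ± 0.20 (limma adjusted p = 0.000174, and 0.120 without the block). It had 6.98, 7.17 and 6.08 on VAD 25-week arrays, 6.49, 6.71 and 6.80 on VAD 18-week arrays and 4.97, 4.97 and 3.50 on control arrays. All 6 VAD arrays lay above all 3 control arrays, and Bmt2 was the single gene of the 6 lists that passed at 18 weeks in the fit over 9 arrays (1.77 ± 0.21, limma adjusted p = 0.00458, and 0.0830 with the replicate block), where 1.51% of named genes passed (1.36% higher, 0.147% lower). Lamtor5, a subunit of the Ragulator scaffold, rose by 0.79 ± 0.17, as did Slc38a9 above, and the GTPase gene Rragd by 1.23 ± 0.31 (limma adjusted p = 0.0665 without the dim pair and 0.0591 with the replicate block). Those that fell were Eif4ebp1 and Tsc2, an inhibitor of mTORC1 (-0.78 ± 0.21), which was named after its value was seen and had a limma adjusted p = 0.0826 with the replicate block.

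Enzymes of glutamine and glutamate metabolism, 17 above the filter, had 0 calls at 25 weeks in limma, with a median of 0.29. Those with the smallest p were Pfas, of purine synthesis, at 0.64 ± 0.20 (limma adjusted p = 0.0501) and Aldh18a1, of proline synthesis, at -1.32 ± 0.46 (limma adjusted p = 0.0743). Of 12 genes of glutathione synthesis and turnover, the substrate route of Slc7a11, Oplah alone passed, at -0.78 ± 0.21 (limma adjusted p = 0.0317, and 0.0695 with the replicate block). It encodes 5-oxoprolinase, which returns glutamate from 5-oxoproline. Without the dim pair some list genes passed that had not passed over 9 arrays, named here after their values were seen. Chac1, which degrades glutathione and is a known ATF4 target, was at -0.92 ± 0.34 over 9 arrays (limma adjusted p = 0.0927) and at -1.48 without the pair (0.00599). Its 18-week change without the pair, -1.04, also passed (limma adjusted p = 0.0458). At 25 weeks Slc38a3 (-1.73), Cars (-0.80), Sesn1 (1.07) and Tsc1 (0.80) passed without the pair as well, in a fit where 15.7% of probe sets passed. Within the pair, the VAD 25-week and control arrays had 6.24 and 3.98 for Slc38a3 and 5.30 and 4.94 for Cars. They had 3.68 and 4.34 for Sesn1 and 5.80 and 5.58 for Chac1. For these genes the pair went the opposite way, while for Tsc1 (5.68 and 5.48) it went the same way.

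**Figure D4:**
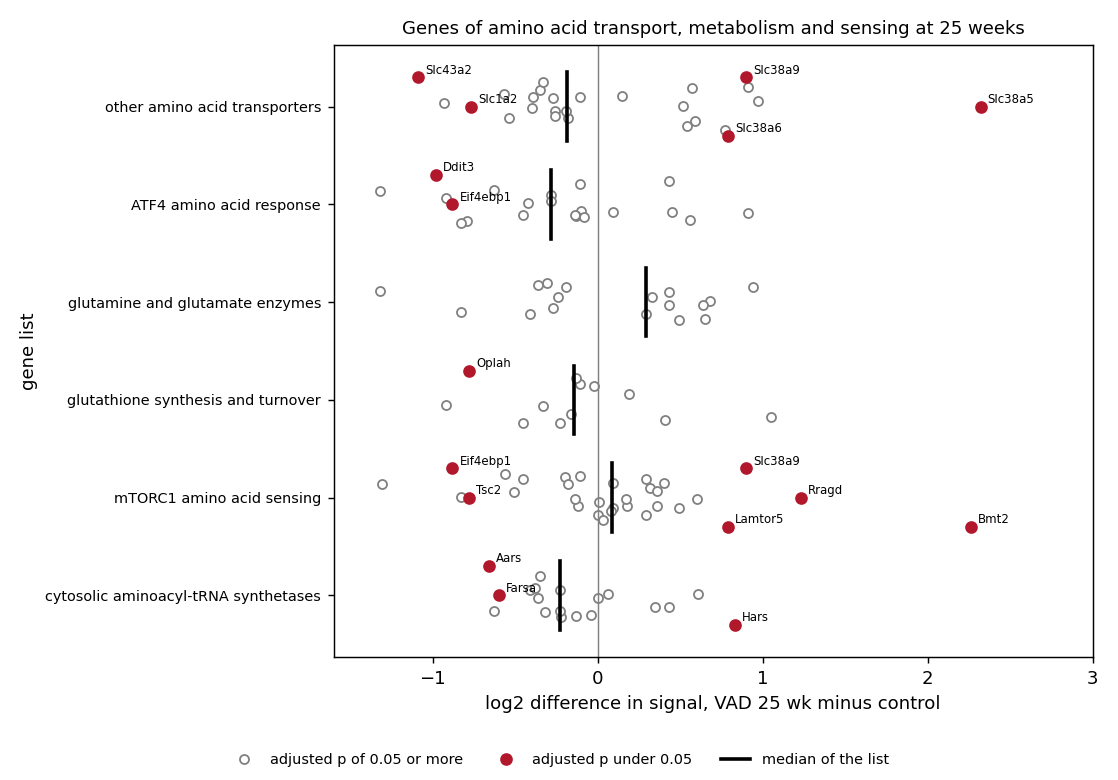
Log2 difference between VAD 25-week and control arrays for each gene above the signal filter in the 6 lists, with filled points for an adjusted p under 0.05 and bars for list medians. List medians lie between -0.28 and 0.29, and the called genes include both increases and decreases in 3 of the 6 lists.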

How the data were processed

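RNA of the 9 preparations was amplified from 100 ng in the Affymetrix protocol of 2 cycles, per the labels' protocols, and read on 1-colour arrays. Deposited values are linear MAS5 signals, an intensity for each probe set, with MAS5 named in the submitters' processing notes. The MAS5 version, its scaling target and detection calls were not given in the sources used here.

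Deposited signals were offset by 3.259 (their 25th percentile), put on a log2 scale and quantile normalized, which understates the change of dim genes. After 64 control probe sets were dropped, the 27022 whose mean reached the 40th percentile stayed in. Gene symbols came from the platform annotation, brought to GRCm38.p6 names through gene identifiers. Each gene was read from the brightest of its kept probe sets, taking _x_at and _s_at sets last, and no probe set's level was set against another's.

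The test was limma 3.58.1 (R 4.3.3) (eBayes with a variance trend) over all 9 arrays, with group and a block for arrays whose trimmed mean was under 0.5 of the median, and Benjamini-Hochberg adjustment over all kept probe sets at 0.05. The code was tested on simulated data. The members, the lists, the block and the tests were chosen with earlier results of these data known. Genes named beside the members were, per list, up to 4 called at 25 weeks with the smallest p (otherwise 2), and the 5 most correlated with Slc1a5. Promoter windows are from RefSeq.

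Replicate numbers come from the sample titles. Deviations from the group mean correlated at 0.52 to 0.69 between VAD 25-week and control arrays of the same number, where replicate 3 of each is the dim pair, and at 0 to 0.07 in pairs with VAD 18-week arrays. The dim-pair offset was not removed first and enters every deviation of the VAD 25-week and control groups. Those correlations therefore cannot show whether arrays of the same number belong together. The numbers were added as a further block where stated. With it, calls were 2591 at 25 weeks and 19 at 18 weeks, against 3999 and 394. The alternatives were other scalings, pseudocounts, filters, variance settings and array sets, and each array left out in turn.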

Additional observations from a re-analysis of the deposited data

Results flagged for a closer look

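Slc7a6 met a comparison of direction, because every VAD 25-week array lay above the control mean and every VAD 18-week array below it. The difference between the means of VAD 25 weeks and VAD 18 weeks was 0.69 on the log2 scale (8.01 ± 0.36 and 7.32 ± 0.08, SD, n = 3), and the control mean of 7.51 ± 0.83 includes the dim array at 8.46. In the fit with the block that difference was 0.35 ± 0.19 (SE). It is given as a description, and in that fit limma called 0 of the 27022 probe sets between the diet times. Outside the dim pair both VAD groups lay above control, by 0.77 at 25 weeks and 0.28 at 18 weeks.

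Bacterial poly-A control probe sets, which no comparison uses, had mean deposited signals of 270 on VAD 25-week replicate 1 and 338 on replicate 2, against 4.97 to 9.15 on control arrays. These are also the 2 brightest arrays, and outside the dim pair the 25-week transporter values rest on them. VAD 25-week replicate 3 had 5.57. The part of this difference in the transporter values was not tested.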

How the results depend on the processing

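Counts of calls moved with the model. At 25 weeks limma called 3999 probe sets, at 18 weeks 394 and between the diet times 0. With group alone these were 0, 0 and 0, with replicate numbers as a block and no block for the dim pair 1, 0 and 0, and with both blocks 2591, 19 and 0. With a block of 3 array sets they were 5011, 963 and 1708, without the dim pair 4234, 1076 and 451, and with array weights 6578, 1086 and 1547. On the deposited scale they were 10578 (10571 higher), 134 and 1806, after median centring 3612 (2790 higher, 822 lower), 482 and 0, and without a variance trend 2378, 0 and 0. Leaving out 1 array gave 1789 (without VAD 25-week replicate 2) to 4166 (without control replicate 3) at 25 weeks. At 18 weeks it gave 37 (without control replicate 1) to 1033 (without control replicate 3), and between the diet times 0 to 390. The fit of VAD 18 weeks without the 25-week arrays and the dim control, added after seeing the data, called 354.

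Of 600 recomputed counts and transporter changes, 546 stayed within 1.5 times (counts), kept direction and side of the threshold (tested changes) or moved by less than 1 SD (untested changes). Directions at 25 weeks turned on the deposited scale for Slc1a5 (0.03), Slc38a1 (0.50), Slc38a2 (0.41), Slc3a2 (0.79) and Slc1a3 (0.77), where the median of all kept probe sets was 0.93. Slc7a6 was at -0.03 with 3 array sets, and Slc1a3 at 0.54 without the dim pair, at 0.36 with array weights and at -0.54 to 0.54 when 1 array was left out. The probe set 1429593_at turned Slc38a2 to 1.03. The causes were not tested. Slc1a5 at 18 weeks stayed between -2.13 and -1.69 when 1 array was left out. That change is the one behind the choice of genes, so its range gives it no support, and it moved further with the pseudocount. Among the 9 transporters, low signal over background limits Slc1a5, Slc7a11 and Slc1a3 most, and it also limits Slc38a5 of the lists.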
